A study of Homo sapiens with 18 samples.

Results

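The BCL2 family of cell death genes was followed in 2 human cell lines of uveal melanoma, Mel92.1 and MP41, through 10 members taken by name: BCL2, BCL2L1, MCL1, BCL2A1, BAX, BAK1, BBC3, PMAIP1, BCL2L11 and BID. All 10 were found among the 26475 gene symbols of the count table. Cells of each line had been grown for 48 h with the solvent DMSO alone, with UNC0642 or with A366, each inhibitor at 1 μM, and 3 libraries per group gave 18 in 6 groups. Both compounds inhibit EHMT2 (G9a), a methyltransferase of lysine 9 of histone H3, and can also inhibit EHMT1. The study found no direct interaction between EHMT2 and EHMT1 in lysates of Mel92.1. The labels name no engineered allele in these groups, and each line stands for the tumour of a single donor. The study's methods call the replicates of its experiments biological. The labels number them without saying that they came from separate cultures, so p-values measure the spread between these libraries. In bulk RNA, a lower level in all cells and a loss of the cells with the most RNA of a gene cannot be told apart.

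Proteins of this family decide whether the outer membrane of the mitochondrion is breached in apoptosis. BAX and BAK1 are the effectors that open the membrane, and the guardians BCL2, BCL2L1, MCL1 and BCL2A1 hold them in check. The BH3-only proteins BBC3 (PUMA), PMAIP1 (NOXA), BCL2L11 (BIM) and BID bind the guardians or the effectors and are switched on by damage, stress or loss of growth signals. PMAIP1 pairs mainly with MCL1 and BCL2A1. BCL2A1 is a target of MITF in pigment cells.

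In 4 of the 18 libraries the label and the RNA disagreed on the cell line, and 2 of the 3 libraries of each A366 group are among them. The study lists A366 replicates 2 and 3 of either label under the other line, and its lists place 14 libraries as labelled. Genes expressed in the DMSO libraries of only 1 line were read in each library, 22 for Mel92.1 and 24 for MP41. In the 4 libraries the genes of the line they were placed in summed to 95.9% to 120% of that line's DMSO level, and the genes of the labelled line to at most 0.0423%. In the other 14 libraries these values were 89.3% to 121% and at most 0.413%. The 4 libraries were therefore placed by the study's lists, each A366 group holding 1 library labelled with its own line and 2 labelled with the other, and results are also given without them. Library totals lay between 23601156 and 62941462 counts, and the share on 4 ribosomal RNA genes was 3.31% to 32.8%, highest in Mel92.1 UNC0642 replicate 1, which also had the smallest total. The 9 melanocytic markers summed to 21300 to 24700 CPM (counts scaled to library size) in Mel92.1 libraries and 15300 to 16700 CPM in MP41 libraries, the 6 immune markers to 0 to 1.19 CPM with CD3E, which defines T cells, at 0 in every library of 5 of the 6 groups, and the 5 fibroblast markers to 23.2 to 54.3 CPM.

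Start sites of 3 members are shown first because their windows hold letters of motifs bound by MITF or by the factors of the ATF4 stress response. BAX and PMAIP1 are an effector and a BH3-only gene that were higher with A366 in MP41. BCL2A1 is shown as a guardian known as an MITF target, and its counts were too few in most libraries for a test that its own high group does not decide. The genes and motifs were chosen after the values were seen. Each window runs from 250 bases before to 50 bases after a start site of RefSeq (GRCh38.p14), is written 5′ to 3′ on the strand of the gene, and has matched letters in capitals.
BAX, chr19:48954625-48954924, + strand: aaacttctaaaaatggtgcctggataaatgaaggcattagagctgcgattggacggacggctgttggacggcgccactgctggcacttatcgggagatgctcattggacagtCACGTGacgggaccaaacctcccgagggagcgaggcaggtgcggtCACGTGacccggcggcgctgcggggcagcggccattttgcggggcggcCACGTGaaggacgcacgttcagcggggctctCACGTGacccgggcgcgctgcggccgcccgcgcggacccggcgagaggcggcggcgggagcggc
PMAIP1, chr18:59899746-59900045, + strand: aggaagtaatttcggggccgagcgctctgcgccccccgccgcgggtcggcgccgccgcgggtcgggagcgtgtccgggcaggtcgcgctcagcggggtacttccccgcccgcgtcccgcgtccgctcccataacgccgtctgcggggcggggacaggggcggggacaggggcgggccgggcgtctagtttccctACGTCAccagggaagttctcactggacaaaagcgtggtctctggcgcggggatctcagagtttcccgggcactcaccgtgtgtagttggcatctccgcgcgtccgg
BCL2A1, chr15:79971147-79971446, - strand: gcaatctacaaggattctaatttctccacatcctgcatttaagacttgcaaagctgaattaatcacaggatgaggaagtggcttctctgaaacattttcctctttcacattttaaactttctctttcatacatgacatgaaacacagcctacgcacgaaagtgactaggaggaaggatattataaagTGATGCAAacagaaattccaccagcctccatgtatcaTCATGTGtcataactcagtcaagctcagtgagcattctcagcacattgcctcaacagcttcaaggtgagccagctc
Of the 10 members, 9 had a window in this RefSeq set and MCL1 had none there. The search covered both strands for the E-box CACGTG, the core of the M-box TCATGTG, a half-site of the cyclic AMP response element TGACGT and the core of the ATF4 composite element TGATGNAA, and no match printed here overlaps another. The BAX window holds 4 copies of the E-box, a letter pattern found at least once in 7.26% of 35116 promoter windows and at least 4 times in 5 of them (0.0142%). The PMAIP1 window holds the half-site TGACGT once, read on the opposite strand, as do 7.98% of windows. The BCL2A1 window holds 1 M-box core (2.92% of windows) and 1 ATF4 composite core (3.62%). BBC3 had 1 E-box. BID had 1 in each of 2 of its 5 windows, which overlap and share the same E-box. These matches describe letters and were not tested for binding.

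With DMSO, the transcripts of the effector BAX and the guardian MCL1 led the family in both lines, and BCL2A1 was close to absent. Levels were compared between genes per kilobase of the longest coding transcript. In Mel92.1 the means of 3 libraries were 54.4 CPM per kb for MCL1, 54.2 for BAX, 25.9 for BAK1, 19.6 for BCL2L1, 18.5 for BID, 14.1 for PMAIP1, 11.1 for BCL2, 4.22 for BBC3, 1 for BCL2L11 and 0.0198 for BCL2A1. The ranges of MCL1 and BAX overlapped, as did those of BCL2L1 and BID, and the other neighbours in this order did not overlap. In MP41 the order was BAX at 47.8 CPM per kb, MCL1 at 42.2, BAK1 at 19.1, BCL2L1 at 16.1, PMAIP1 at 4.01, BBC3 at 3.96, BCL2 at 1.84, BCL2L11 at 1.83, BID at 0.689 and BCL2A1 at 0.122. Here PMAIP1 overlapped BBC3 and BCL2 overlapped BCL2L11.

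**Figure D1:**
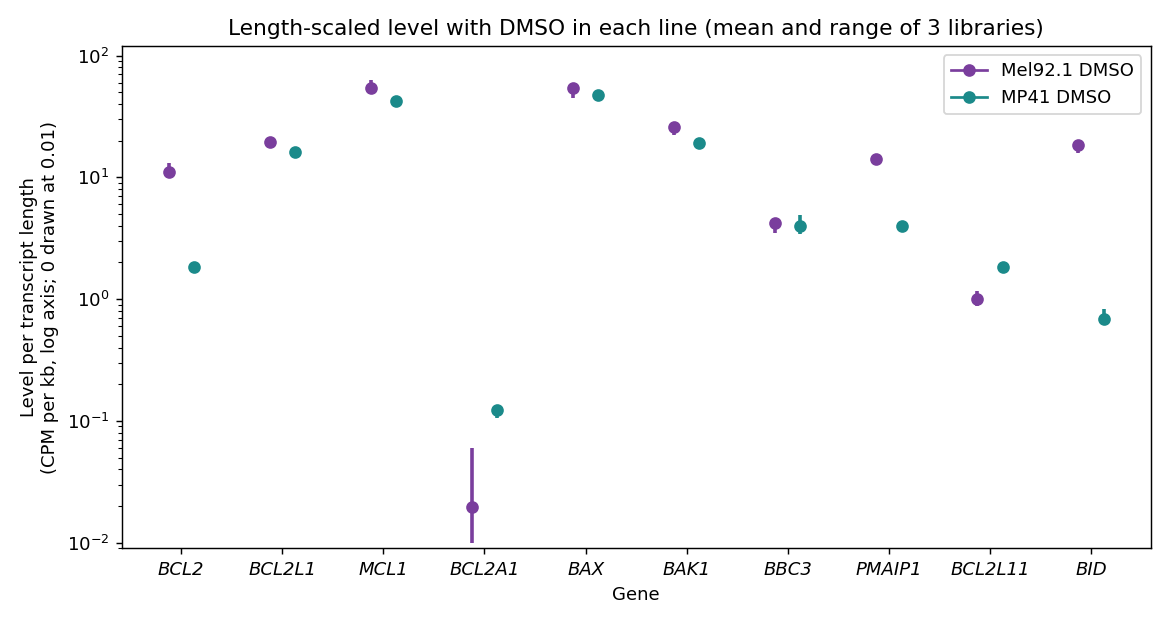
Level of each member per transcript length in the DMSO libraries of Mel92.1 (purple) and MP41 (teal), in CPM per kb on a log axis, with points for the mean of 3 libraries and bars for their range. BID sits at 18.5 in Mel92.1 and 0.689 in MP41, and MCL1 and BAX lie highest in both lines.

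The lines differed most in BID, which encodes the BH3-only protein cleaved by caspase-8 after a death receptor is engaged (chr22:17734138-17774770). Its levels were 39.5, 50.7 and 48.4 CPM in the DMSO libraries of Mel92.1 and 1.54, 1.53 and 2.09 CPM in those of MP41. The gap was 26.8-fold, a log2 difference of 4.74 (SE 0.18, adjusted p = 3.44e-13), tested in 1 fit of the 18 libraries. Adjusted p-values are from the quasi-likelihood test of edgeR, adjusted by the Benjamini-Hochberg method over all genes tested, unless another tool is named. BCL2 (chr18:63123346-63320128), the founding guardian, stood at 98, 75.2 and 75.1 CPM in Mel92.1 and 13.7, 13.1 and 14.3 CPM in MP41. That is a log2 difference of 2.59 (SE 0.15, adjusted p = 5.46e-11). PMAIP1 (chr18:59899948-59904306) followed, with 27.2, 28.9 and 26.6 CPM against 7.35, 8.13 and 7.97 CPM and a log2 difference of 1.82 (SE 0.12, adjusted p = 4.72e-10). No library of 1 line reached the range of the other for these 3 genes.

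Of the 10 members 7 passed, against 69.4% of the 15799 genes tested, so the share of the family was near the background. Members higher in Mel92.1 were 6 (background 34.5%), the further ones being BAK1 (0.44), MCL1 (0.36) and BCL2L1 (0.28). BCL2L11, the BH3-only gene that rises when growth signals are withdrawn, was the 1 member lower in Mel92.1 (background 34.8%). Its DMSO libraries held 6.08, 5.03 and 4.61 CPM in Mel92.1 and 8.76, 10.4 and 9.63 CPM in MP41, a log2 difference of -0.87 (SE 0.14, adjusted p = 2.96e-05). BAX, BBC3 and BCL2A1 did not pass, at 0.18, 0.092 and -2.31. The median over the members was 0.32 and that of all genes -0.022. Differences between the lines moved with GC content (Spearman 0.275) and with transcript length (-0.183) across 15235 genes of these libraries, a description with no test. Once both were taken into the fit as an offset, BCL2, PMAIP1, BID, MCL1 and BCL2L11 stayed past the threshold in the same direction (3.03, 2.14, 4.68, 0.54 and -0.59). Among the GC-rich members, BAX turned to -0.3 and BBC3 to -0.91, and both then passed. BCL2L1 (-0.06, SE 0.057) and BAK1 (-0.0025, SE 0.068) fell to near 0 and did not pass.

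The chromosomal neighbours of BID, BCL2 and PMAIP1 were examined after these gaps were seen. The 12 nearest tested genes around BID had a median log2 difference of -0.49 between the lines, with 2 higher and 4 lower in Mel92.1. The adjacent BCL2L13 and MICAL3 were lower in Mel92.1 (-0.59 and -0.54), ATP6V1E1 was lower too (-1.09), and TUBA8 was the other gene much higher there (5.69). BCL2 had 4 neighbours higher and 6 lower, and PMAIP1 had 1 higher and 7 lower. BCL2 and PMAIP1 lie 3.22 Mb apart on chromosome 18 and are each among the other's 12 neighbours. Around BID and BCL2, neighbours past the threshold lay on both sides of 0, with PMAIP1 among the 4 higher ones of BCL2. Around PMAIP1 the 1 higher neighbour was BCL2 (2.59), itself chosen for its gap, and the other 7 past the threshold were lower.

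**Figure D2:**
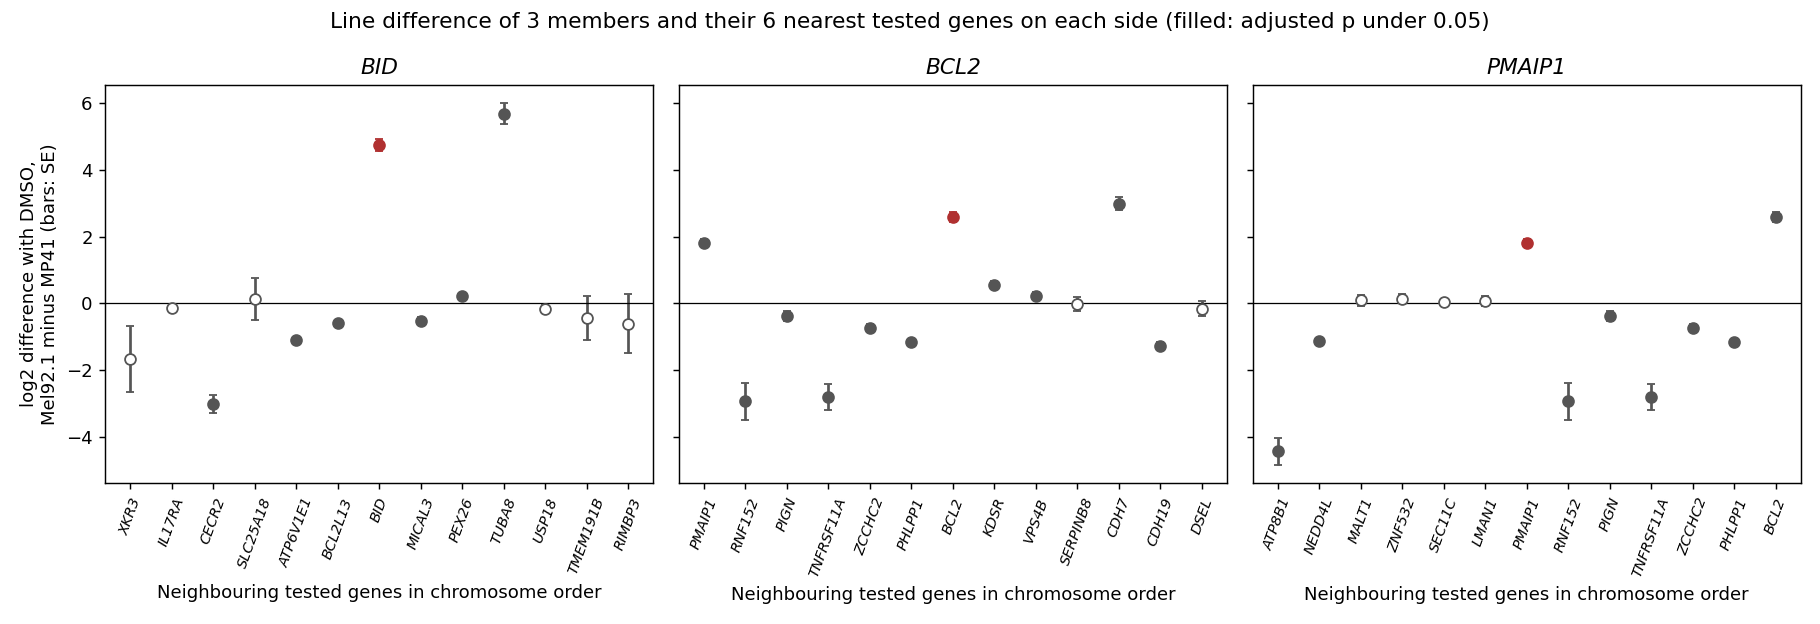
Log2 difference between Mel92.1 and MP41 with DMSO (y axis, bars SE) for BID, BCL2 and PMAIP1 (red) and the 6 nearest tested genes on each side in chromosome order, filled where the adjusted p was under 0.05. BID at 4.74 and TUBA8 at 5.69 stand above neighbours that lie between -3.02 and 0.21.

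In Mel92.1 treated with UNC0642, PMAIP1 had the largest log2 change of the tested members and did not pass the threshold. Its levels were 14.5, 19.7 and 22 CPM with UNC0642 against 27.2, 28.9 and 26.6 CPM with DMSO. All 3 treated libraries lay below all 3 controls. Such separation was read for the members only, without its share over all genes, and is a description in every comparison. The log2 change was -0.55 (SE 0.14, 95% interval -0.86 to -0.24) and the adjusted p 0.163. The lowest value came from the library with 32.8% ribosomal RNA counts, and without it the log2 change was -0.4 (adjusted p = 0.0533). PMAIP1 passed with DESeq2 (adjusted p = 0.0097), with limma voom and sample quality weights (0.0101), with all 18 libraries in 1 fit (0.0186) and with an offset for GC and length (-0.62, adjusted p = 0.0331). The other 8 tested members changed by -0.032 to 0.18. Thus 0 of 9 tested members passed in edgeR (1 at an unadjusted p under 0.05), where 0.688% of 14528 genes passed. The count was 1 in DESeq2, 1 in voom and 0 in limma on log2(CPM + 1), whose shares over all genes are not given here. BCL2A1 was below the filter on low counts in Mel92.1, with 0 to 8 counts in its 9 libraries, and a change in it was not detectable at this depth.

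A366 in Mel92.1 gave lower mean levels of the same gene and of BBC3, the BH3-only gene known as a main p53 target. PMAIP1 stood at 22.3, 23.1 and 22.6 CPM, again below every DMSO library, with a log2 change of -0.28 (SE 0.14, adjusted p = 1). BBC3 (chr19:47220822-47232766) had 4.99, 5.78 and 5.82 CPM against 6.41, 8.57 and 8.32 CPM with DMSO, without overlap. Its log2 change was -0.49 (SE 0.2) with an adjusted p of 1. None of the 9 members passed in edgeR (1 at an unadjusted p under 0.05), in DESeq2 or in limma on log2(CPM + 1), and 0.213% of all genes did in edgeR. With voom and sample quality weights 4 passed, BBC3 (-0.69), PMAIP1 (-0.33) and BAX (-0.24) lower and BCL2L11 (0.26) higher. The share of all genes passing in voom is not given here, so this count has no background. The remaining members changed by -0.093 to 0.15 in edgeR.

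UNC0642 in MP41 left every member under the threshold as well, in edgeR (1 at an unadjusted p under 0.05), DESeq2, limma on log2(CPM + 1) and voom, beside 0.241% of 14956 genes called in edgeR. Apart from the rare BCL2A1 (1.04), the largest log2 change was that of BCL2, with 10.2, 10.4 and 10.3 CPM against 13.7, 13.1 and 14.3 CPM. The treated libraries lay below the controls and close to each other. The log2 change was -0.42 (SE 0.14, adjusted p = 0.375). BCL2L1, the guardian known as BCL-XL (chr20:31664452-31723989), also lay below its controls, at 38.1 to 40.1 CPM against 41.9 to 42.1 CPM, with a log2 change of -0.11 (adjusted p = 0.691). PMAIP1 held 7.25 to 8.05 CPM against 7.35 to 8.13 CPM with DMSO, a change of -0.03 (95% interval -0.25 to 0.19). The line difference in the response of PMAIP1 to UNC0642 was -0.52 (SE 0.17, adjusted p = 0.267), and 0 members passed that test (2 at an unadjusted p under 0.05, and 0 in DESeq2 and both limma fits) beside 0.601% of 15799 genes.

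**Figure D3:**
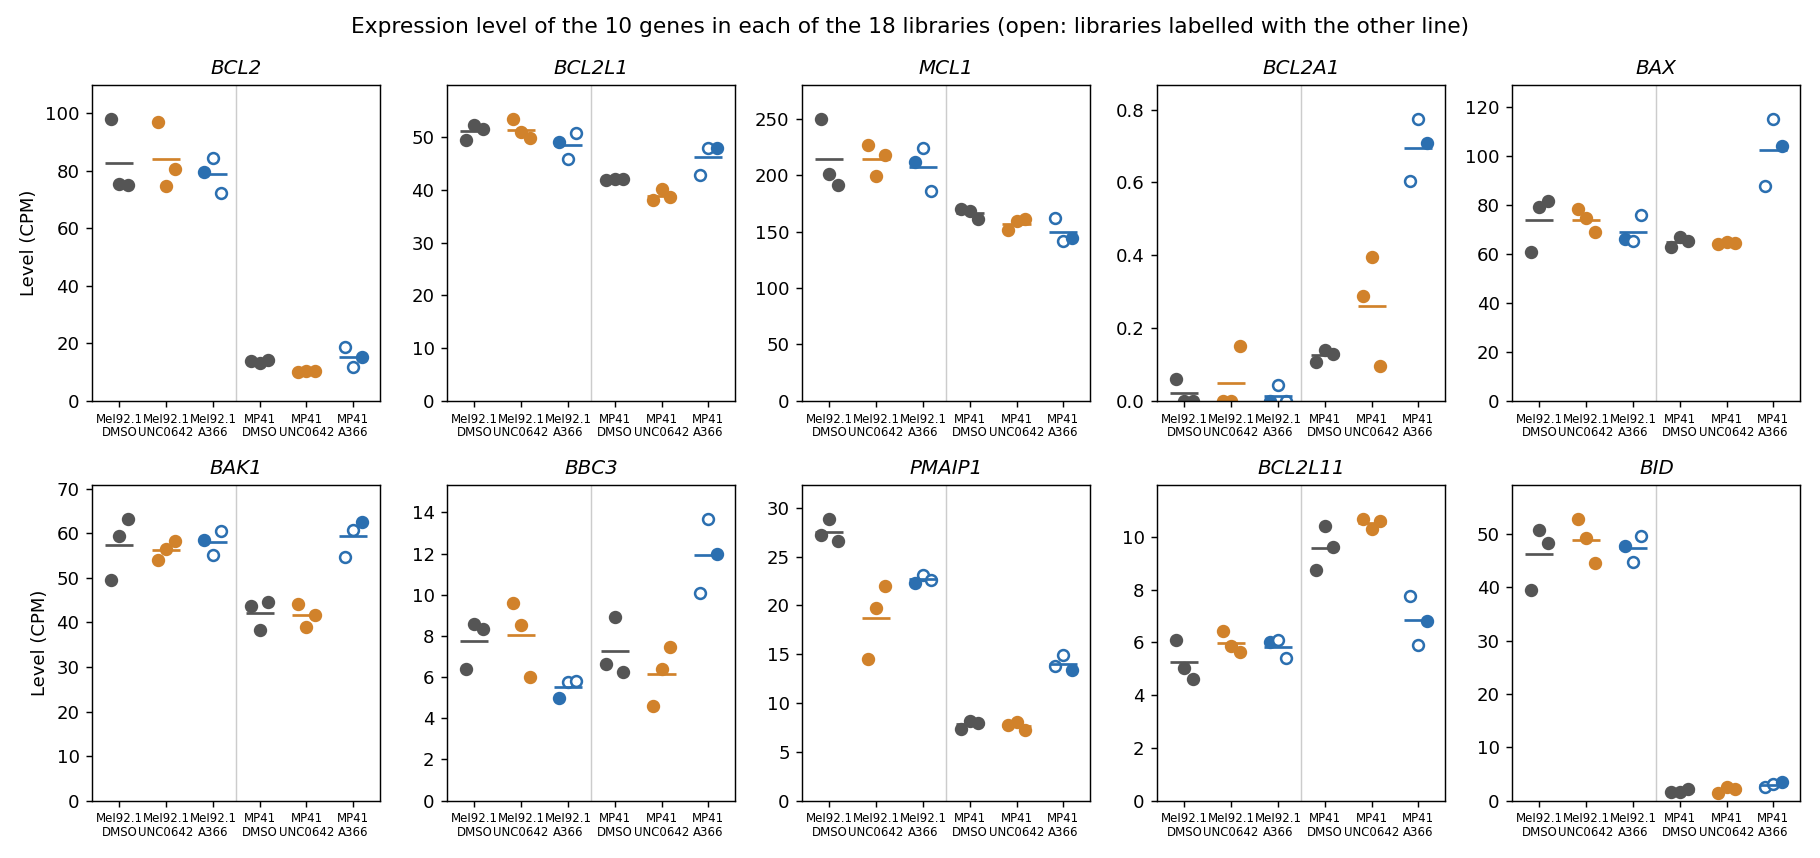
Expression level in CPM (y axis from 0) of the 10 members in each library of the 6 groups, with bars for the mean of 3 libraries and open circles for the 4 libraries labelled with the other line. PMAIP1 with A366 in MP41 runs from 13.4 to 14.9 CPM above its controls at 7.35 to 8.13 CPM, and BID in MP41 reaches at most 3.41 CPM.

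A366 in MP41 was the exception. Of the 10 members 7 passed, 6 higher and 1 lower, with a median log2 change of 0.55 against 0.02 over all genes. The background was wide in this comparison, where 46% of 14956 genes passed, 22.5% higher and 23.5% lower. The effectors, 3 of 4 BH3-only genes and the guardian BCL2A1 were higher, BCL2L11 was lower, and BCL2, BCL2L1 and MCL1 did not pass. BCL2A1 entered the fit only through its A366 libraries, so its call is set by the filter on low counts and supports nothing. A filter at a mean of 1 CPM, which leaves it out, gave 6 members past the threshold. The ribosomal RNA genes took 5.93%, 8.06% and 11% of the A366 libraries, above all 3 DMSO libraries (3.31% to 5.1%) and all 3 UNC0642 libraries (3.55% to 5.14%) of MP41. Without these genes in the counts, 7 members passed, with BAX at 0.63, BAK1 at 0.47, BBC3 at 0.69, PMAIP1 at 0.82, BID at 0.79 and BCL2L11 at -0.51, and any other part of RNA or library quality in these results was not tested.

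Among the guardians, BCL2A1 (chr15:79960889-79971446) stayed rare. It had 30, 36 and 41 counts with A366, 5, 6 and 6 with DMSO and 13, 19 and 4 with UNC0642. The A366 libraries lay above all others, at 0.604, 0.775 and 0.709 CPM. The log2 change of 2.42 rests on few counts and is given as a description, without its p. MCL1 (chr1:150574551-150579738), a short-lived guardian, stood at 162, 142 and 144 CPM against 170, 168 and 161 CPM, and the ranges overlapped. Its log2 change was -0.18 (SE 0.069, adjusted p = 0.0546), and it was -0.25 (adjusted p = 0.0127) without the 4 libraries. BCL2L1 had 42.9, 48 and 48 CPM, above its controls at 41.9, 42 and 42.1 CPM, with a log2 change of 0.12 (SE 0.066, adjusted p = 0.174). BCL2 spread from 11.8 to 18.8 CPM around controls at 13.1 to 14.3 CPM, a log2 change of 0.14 (SE 0.14, adjusted p = 0.442), and it passed with the GC and length offset, at 0.46 (adjusted p = 0.00237).

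Both effectors were higher. BAX (chr19:48954815-48961798), whose start site carries the 4 E-boxes printed above, had 87.7, 115 and 104 CPM with A366 against 62.9, 66.7 and 65.2 CPM with DMSO. The groups did not overlap, and the log2 change was 0.63 (SE 0.086, adjusted p = 0.000427). BAK1 (chr6:33572547-33580293) had 54.6, 60.8 and 62.6 CPM against 43.7, 38.4 and 44.5 CPM. Again every A366 library exceeded every control, with a log2 change of 0.47 (SE 0.081, adjusted p = 0.00108). Under UNC0642 the same genes changed by -0.019 and -0.026.

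PMAIP1 was the BH3-only gene with the smallest adjusted p. Its A366 libraries held 13.8, 14.9 and 13.4 CPM against 7.35, 8.13 and 7.97 CPM with DMSO, a 1.76-fold rise (log2 0.82, SE 0.098, adjusted p = 0.00026). BBC3 had 10.1, 13.7 and 12 CPM against 6.64, 8.94 and 6.26 CPM, with a log2 change of 0.69 (SE 0.19, adjusted p = 0.00983). BID had 2.52, 3.14 and 3.41 CPM against 1.54, 1.53 and 2.09 CPM, or 125 to 197 counts against 66 to 96, with a log2 change of 0.79 (SE 0.24, adjusted p = 0.0194). In all 3 the groups did not overlap, a description given without the share of all genes that separate in this way. BID remained far below its level in Mel92.1, and it lost the threshold without the 4 exchanged libraries (0.94, adjusted p = 0.0545) and when DMSO replicate 1 or 2 or A366 replicate 1 or 3 of MP41 was left out (adjusted p up to 0.0828). BCL2L11 (chr2:111119378-111168447) went the other way, with 7.77, 5.9 and 6.83 CPM against 8.76, 10.4 and 9.63 CPM. All A366 libraries lay below the controls, with a log2 change of -0.51 (SE 0.12, adjusted p = 0.00498).

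**Figure D4:**
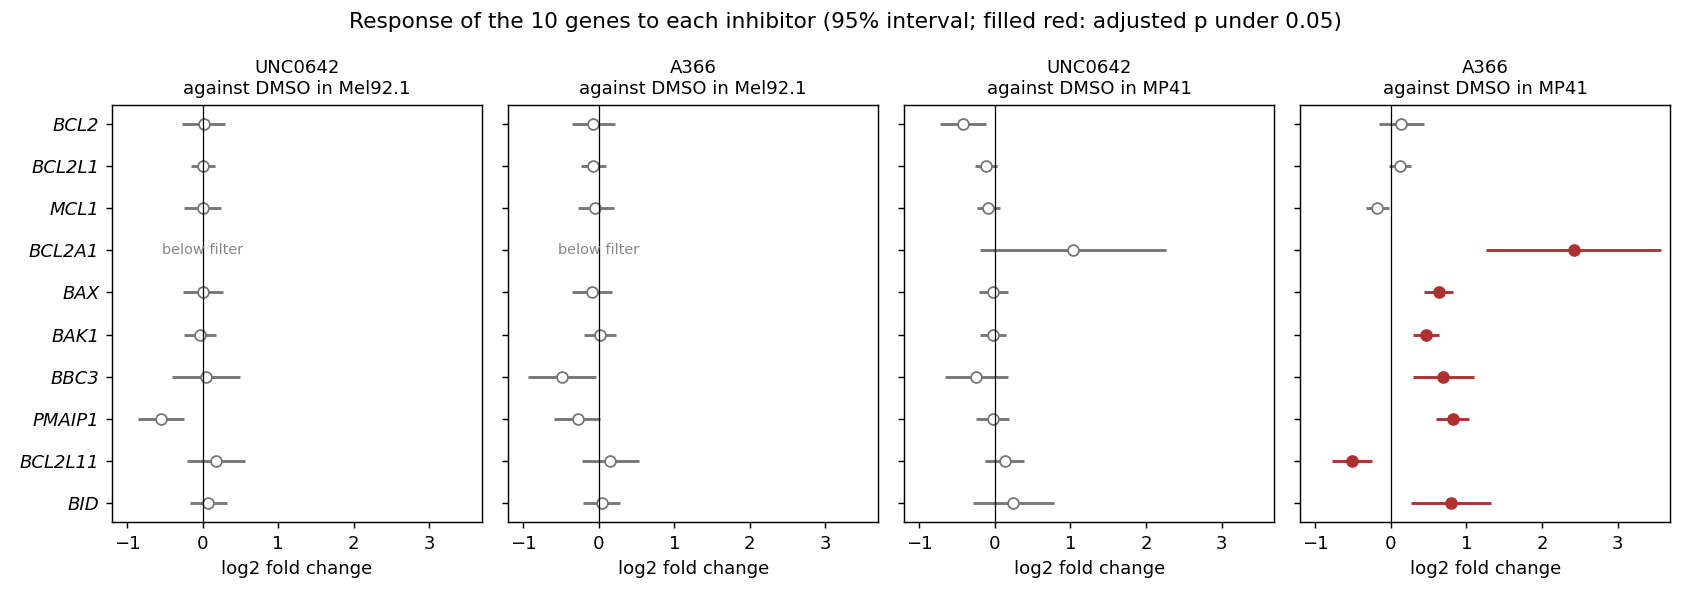
Log2 fold change of each member (x axis) for both inhibitors against DMSO in Mel92.1 and MP41, with 95% intervals and filled red points where the adjusted p was under 0.05. Only the panel of A366 in MP41 has filled points, 7 of 10, from -0.51 for BCL2L11 to 2.42 for BCL2A1, which entered that fit through its A366 libraries.

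The response to A366 in MP41 moved with the base composition and length of transcripts across the transcriptome, and the members differ widely in both. Over 14455 genes the Spearman correlation of the log2 change was 0.474 with GC content and -0.502 with transcript length, a description over genes that share the same libraries. The transcripts of BBC3, BAX, BAK1 and BCL2L1 hold 69.7%, 58.9%, 58.8% and 56.9% GC, and those of PMAIP1, BCL2A1, BCL2 and BCL2L11 hold 37.2%, 39.9%, 45.6% and 45.7%. With an offset for both properties PMAIP1 rose by 0.87 (adjusted p = 5.8e-05), BID by 0.67 (0.0469) and BAX by 0.17 (0.00913), and BCL2L11 fell by 0.3 on the log2 scale (0.0358). BAK1 (0.16, adjusted p = 0.0937) and BBC3 (0.14, adjusted p = 0.53) no longer passed. The median of the members was then 0.16. Whether the relation to GC content and length arose in the cells or in the libraries was not tested.

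**Figure D5:**
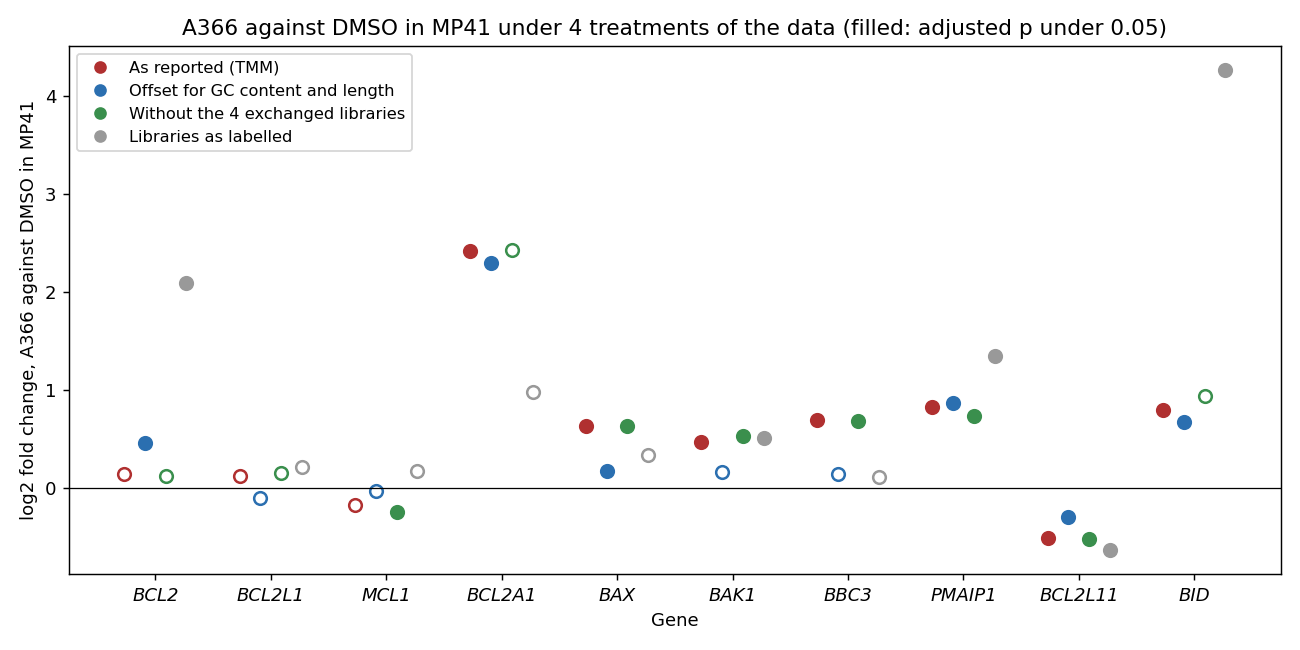
Log2 fold change of each member for A366 against DMSO in MP41 (y axis) as reported, with a GC and length offset, without the 4 exchanged libraries, and with the libraries as labelled, filled where the adjusted p was under 0.05. With the offset BBC3 drops from 0.69 to 0.14 while PMAIP1 stays at 0.87, and with the libraries as labelled BID appears at 4.27 and BCL2 at 2.09.

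At the matched dose and time, A366 and UNC0642 gave different levels of most members in MP41 and no difference past the threshold in Mel92.1. In MP41 8 of the 10 members passed in a direct comparison, 7 higher with A366 (background 21.1%) and 1 lower (22%), beside 43.1% of all genes. The largest differences among members above 1 CPM were those of BBC3 (log2 0.94, SE 0.19, adjusted p = 0.00226), PMAIP1 (0.85, SE 0.098, adjusted p = 0.000145), BAX (0.65, SE 0.086, adjusted p = 0.000281) and BCL2L11 (-0.64, SE 0.12, adjusted p = 0.00161). BCL2 passed here (0.55, adjusted p = 0.00762), where its A366 level of 11.8 to 18.8 CPM lay above all UNC0642 libraries at 10.2 to 10.4 CPM, and so did BCL2L1 (0.23), BAK1 (0.49) and BCL2A1 (1.38). The call of BCL2A1 is again set by the filter, and it was lost in 14 of its 24 alternatives, among them the removal of any library of MP41 but UNC0642 replicate 2. BCL2L1 lost it in 6 of 25, among them the removal of A366 replicate 1 or 3 (adjusted p up to 0.0713). Over 14455 genes this difference had a Spearman correlation of 0.435 with GC content and -0.473 with transcript length. With the GC and length offset PMAIP1 (0.89) and BCL2 (0.84) were the largest differences above 1 CPM, BCL2L11 stood at -0.45, BBC3 at 0.44, BAX at 0.23 and BAK1 at 0.2, all past the threshold, and BCL2L1 did not pass (0.012, adjusted p = 0.882). MCL1 and BID did not pass without the offset, with 95% intervals of -0.24 to 0.062 and 0.021 to 1.07. In Mel92.1 0 of 9 members passed in edgeR (1 at an unadjusted p under 0.05, BBC3 at -0.53), DESeq2 or either limma fit, beside 0.165% of all genes. The 95% interval of the difference was -0.98 to -0.069 for BBC3, -0.037 to 0.58 for PMAIP1 and -0.36 to 0.17 for BAX. Both comparisons share the A366 or UNC0642 libraries with those against DMSO.

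The lines differed in their response to A366 for 6 members by the interaction in the fit of 18 libraries, where a negative value means a lower response in Mel92.1 than in MP41. The share of all genes was 13.8%, 5.13% higher and 8.67% lower. PMAIP1 differed by -1.12 (SE 0.17, adjusted p = 0.000949), and the other members whose response was lower in Mel92.1 were BBC3 (-1.2, SE 0.3), BAX (-0.75, SE 0.15), BID (-0.78, SE 0.24) and BAK1 (-0.48, SE 0.13). BCL2L11 was higher by 0.64 (SE 0.2, adjusted p = 0.0412). Without the 4 exchanged libraries each A366 group held 1 library, its spread was taken from the other groups, and 0 members passed (PMAIP1 at -1.07, adjusted p = 0.0733). With the GC and length offset, PMAIP1 (-1.23, adjusted p = 6.36e-05) and BAX (-0.26, adjusted p = 0.0352) passed. The count was 2 without Mel92.1 DMSO replicate 2, Mel92.1 DMSO replicate 3, Mel92.1 A366 replicate 1 or MP41 A366 replicate 3, and 3 without MP41 DMSO replicate 2, MP41 A366 replicate 1 or Mel92.1 A366 replicate 2.

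Genes that act with the family were read from fixed lists in the same comparison of A366 with DMSO in MP41. In the other 3 comparisons of an inhibitor with DMSO, no listed gene outside the melanocytic markers passed without the offset. With the GC and length offset, GDF15 (-0.36, adjusted p = 0.000174) and DDIT3 (-0.47, adjusted p = 0.00741) passed as lower with UNC0642 in MP41. MYC did so with A366 in Mel92.1 (-0.27, adjusted p = 0.0435). Values in this paragraph and the next are log2 changes. Each count without the offset stands beside the background of 22.5% higher and 23.5% lower. The share of all genes with the offset is not given here, so counts with it have no background. Of the 5 other effector and BH3-only genes 3 were higher and 0 lower: the BH3-only genes HRK (0.81), BAD (0.68) and BMF (0.22). The guardian BCL2L2 was higher by 0.23. Of 7 tested BCL2-like and BNIP genes 1 was higher, BCL2L12 (0.4), and 3 were lower, among them BNIP3 (-0.79) and BNIP3L (-0.56), receptors for mitophagy that hypoxia induces. Of 7 IAP genes, inhibitors of caspases, 1 was higher, BIRC5 (0.23), and 2 were lower, BIRC6 (-0.96) and XIAP (-0.25). Of 11 caspase and apoptosome genes 2 were higher, the initiator caspases CASP9 (0.6) and CASP10 (0.41), and 3 lower, among them the apoptosome scaffold APAF1 (-0.53) and CASP2 (-0.31). Factors released from mitochondria or forming their channels gave 3 higher and 1 lower of 7, with ENDOG at 0.97, the protease HTRA2 at 0.42, DIABLO at 0.21 and VDAC1 at -0.23. The death receptor list gave 2 higher and 1 lower of 9 tested, with the adaptors TRADD at 0.96 and FADD at 0.28 and the receptor FAS at -0.36. With the offset HRK (0.99), BMF (0.21), BCL2L2 (0.18), CASP9 (0.6), CASP10 (0.66), TRADD (0.48), BNIP3 (-0.87), BNIP3L (-0.32), BIRC6 (-0.47), CASP2 (-0.24) and VDAC1 (-0.36) stayed past the threshold, while BAD (0.079), BCL2L12 (0.011), ENDOG (0.34), HTRA2 (0.11), APAF1 (-0.13), BIRC5 (0.097) and FAS (-0.24) did not. XIAP turned to 0.25 and passed as higher, and DIABLO and FADD turned to -0.057 and -0.097 without passing. Other genes passed with the offset and not without it. Among them the IAP gene BIRC7 (-0.54), the effector relative BOK (-0.34) and VDAC3 (-0.22) were lower. DFFA (0.41), CYCS (0.29), CASP8 (0.26), BCL2L13 (0.24) and BIRC2 (0.18) were higher. The counts with the offset were 2 higher and 1 lower for the other effector and BH3-only genes, 1 and 2 for the BCL2-like and BNIP genes, 2 and 2 for the IAP genes, 5 and 1 for the caspases and apoptosome, 0 and 2 for the released factors and channels, and 2 and 0 for the death receptor list.

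Of 12 stress and MITF regulators of members 5 were higher and 1 was lower. Among them the stress factor ATF3, which binds the PMAIP1 promoter with ATF4, was higher by 1.8 (SE 0.096), DDIT3 (CHOP) by 1.3, TRIB3 by 1.23 and ATF4 by 0.58. MITF, the master factor of pigment cells, fell by 0.42 on the log2 scale. The offset kept these directions, at 1.59, 0.97, 0.93, 0.27 and -0.14. The mean level of ATF3 in MP41 was 7.28 CPM with DMSO, 5.87 with UNC0642 and 25.8 with A366, and in Mel92.1 it was 11, 4.65 and 6.25 CPM. Of 14 p53 genes 5 were higher, among them PHLDA3 (0.85), FDXR (0.61), TP53I3 (0.53) and CDKN1A (0.45), and 2 were lower, MDM2 (-0.3) and ZMAT3 (-0.37). With the offset MDM2 and ZMAT3 turned to 0.22 and 0.14 and passed as higher, PHLDA3 (0.59) and CDKN1A (0.15) still passed, FDXR (0.16) and TP53I3 (0.18) did not, and GDF15, at 0.24 without the offset, passed as lower (-0.3), which made 7 higher and 1 lower. Of 6 genes of MCL1 turnover 0 were higher and 5 lower, among them the ubiquitin ligase HUWE1 (-0.71) and the deubiquitinases USP9X (-0.64) and USP13 (-0.49), along with the kinase GSK3B (-0.32). USP13 did not pass with the offset (-0.11), and GSK3B turned to 0.094. HUWE1 (-0.4) and USP9X (-0.12) kept the threshold, and the list then had 1 higher and 2 lower. Of the 9 melanocytic markers, MITF among them, 5 were higher and 3 lower, and 4 and 2 with the offset.

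The genes most like each member were found by the Pearson correlation of log2 CPM, centred by line, over the 18 libraries, all of which share the depth and composition described above. Treatment groups were not centred and no GC and length offset was used. Differences between groups, such as those of A366 in MP41, therefore enter these values, and shared regulation was not tested. PMAIP1 was closest to PSPH, an enzyme of serine synthesis, with r = 0.949, to ATF3 (0.941) and to FRMD8 (0.94). BAX was closest to SLC25A6 (0.984), BAK1 to YIPF3 (0.961), BBC3 to TRIM11 (0.91), BCL2L11 to ATAD5 (0.955), MCL1 to MOB1A (0.941), BCL2L1 to RILP (0.939), BID to PIGY (0.907) and BCL2 to ZNHIT6 (0.889). Of the 10 members, 6 overlap another annotated gene of the table. ABALON lies antisense to BCL2L1, GGNBP1 and MIR4435-2HG lie opposite BAK1 and BCL2L11, MIR3190 and MIR3191 overlap BBC3, MIR3198-1 overlaps BID, and ADAMTSL4-AS1 overlaps MCL1 on its own strand. The study's methods describe strand-specific libraries, but they differ from the series text on RNA selection and instrument. Whether the counting used the strand is not given in the sources used here. Overlap was read over whole gene spans and not over exons, so whether reads of these pairs were mixed was not tested.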

How the data were processed

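RNA-seq was made from 18 libraries of the cell lines Mel92.1 and MP41, 3 per group. The authors deposited expected counts per gene for 26475 human symbols, not normalized, and the submitters' processing notes name RSEM 1.2.15, Bowtie2 2.1.0 and the hg38 build. The study's methods describe another path, with mm10, TopHat and FPKM values from Cufflinks, which this table does not hold, and name a HiSeq instrument and oligo-dT selection where the series text names a NextSeq and removal of ribosomal RNA.

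Expected counts were rounded and tested with edgeR 4.0.16 in R 4.3.3 (filterByExpr, TMM factors, glmQLFit and glmQLFTest, Benjamini-Hochberg adjustment over all genes, threshold 0.05), with the 9 libraries of a line in 1 fit and all 18 for comparisons between lines. A standard error is the log2 change divided by the square root of F. CPM values of all libraries share the TMM factors of the fit of 18. Gene positions, transcript lengths and GC content are from GENCODE release 29 (GRCh38), where 23899 symbols matched by name and 719 by a synonym. On simulated data with 200 genes changed by 1.5 (log2) per line, 187 of them were found in Mel92.1 along with 9 wrong genes, 197 in MP41 along with 6, and 344 of 395 in the line difference along with 11. For the line difference a call in either direction counted as found. Members called with A366 in MP41, BCL2A1 apart, changed by at most 0.82. No trend with GC content or length was simulated, so recovery of such changes in these data was not tested.

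The 10 members, the placement of the 4 libraries and the gene lists were chosen with earlier results of these data known. The members were named throughout, and of each list up to 4 genes per direction past the threshold in a comparison with DMSO, smallest adjusted p first, plus the 3 genes most like each member. The values of 1 listed gene that this rule names are not reported here. Alternatives were DESeq2 1.42.0, limma 3.58.1 on log2(CPM + 1) and with voom and sample quality weights, RLE or no composition factors, ribosomal RNA genes left out, other filters, a replicate block, an offset for GC and length by splines with 5 degrees of freedom, other sets of libraries, a fold change minimum of 1.5, and leaving out each library. Depth is given with the results.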

Additional observations from a re-analysis of the deposited data

Results flagged for a closer look

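For 6 members the response to A366 differed between the lines by the interaction test of edgeR with Benjamini-Hochberg adjustment, as the log2 change in Mel92.1 less the log2 change in MP41. PMAIP1 gave -1.12 (adjusted p = 0.000949), BBC3 -1.2 (adjusted p = 0.0171), BID -0.78 (adjusted p = 0.0396), BAX -0.75 (adjusted p = 0.00686) and BAK1 -0.48 (adjusted p = 0.024), all with the larger response in MP41. BCL2L11 gave 0.64 (adjusted p = 0.0412), with the fall in MP41. The A366 groups on both sides hold 2 libraries labelled with the other line. Across 15235 genes the difference had a Spearman correlation of -0.481 with GC content and 0.431 with transcript length. With the GC and length offset PMAIP1 and BAX passed and the other 4 did not.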

How the results depend on the processing

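The alternatives gave 2177 values of single members on the reported side of the threshold or within 1 SE of the value, 108 that lost it, 36 that gained it, 48 that changed sign by more than 1 SE without a call, and 9 that reversed. PMAIP1 with A366 in MP41 passed in all 25 alternatives (0.73 to 1.35). For UNC0642 in Mel92.1, 1 member passed with DESeq2, with the GC and length offset, with voom and with all 18 libraries. For A366 in Mel92.1, 4 passed with voom. Shares over all genes were taken from the reported edgeR fit, so counts of members under the alternatives have no background of their own. A fold change minimum of 1.5 left 5 members for A366 against UNC0642 in MP41 and 4 for Mel92.1 against MP41. Library size without a composition factor left 4 for that comparison and 2 for the line difference in the response to A366, where it moved the median of all genes by -0.2 and 0.11. That setting also moved the median by -0.21 for UNC0642 in Mel92.1, by 0.23 for A366 against UNC0642 there and by -0.21 for the line difference in the response to UNC0642. For the line difference in the response to A366, 0 passed without the 4 exchanged libraries, 2 with the GC and length offset, and 2 to 6 when a library was left out. Leaving out a library gave 6 to 9 members for A366 in MP41. With the libraries as labelled, BCL2A1 reversed to -0.049 for A366 against UNC0642 in MP41 and BBC3 to 0.2 for the line difference in the response to A366, since each labelled A366 group then mixes both lines. With the GC and length offset, Mel92.1 against MP41 changed sign for BCL2L1 (-0.06), BAX (-0.3), BAK1 (-0.0025) and BBC3 (-0.91), which counted as reversed. Of these, BCL2L1 and BAK1 lay near 0 and did not pass. Beyond the constructions named, the cause was not tested.

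Samples share only a replicate number: deviations of same-numbered libraries correlated at -0.383 to 0.485, with 2 of 18 pairs over 0.1. With the replicate block 0 members passed for UNC0642 or A366 in Mel92.1 and for UNC0642 in MP41, 7 for A366 in MP41, 0 and 7 for A366 against UNC0642 in Mel92.1 and MP41, 0 and 4 for the line differences under UNC0642 and A366, and 7 for Mel92.1 against MP41. With the replicate block and the offset for GC and length together, 4 passed for A366 in MP41, 5 for A366 against UNC0642 in MP41 and 1 for the line difference under A366, and Mel92.1 against MP41 reversed for BAX (-0.29), BAK1 (-0.085) and BBC3 (-0.72).

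Depth limits BCL2A1, with 0 to 8 counts per library in Mel92.1, and 3 libraries per group limit all tests. Intervals cover the spread between libraries.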
